A study of Mus musculus with 11 samples.

Results

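This comparison asked, peak by peak, whether the change in chromatin accessibility from duct to terminal end bud (TEB) differed between basal and luminal mammary epithelial cells. All 11 of the 11 ATAC-seq libraries of the series entered a single model of 4 groups: basal duct (n = 2), basal TEB (n = 3), luminal duct (n = 3) and luminal TEB (n = 3). The quantity tested was the interaction, the log2 fold change of basal TEB over basal duct minus that of luminal TEB over luminal duct, and 126832 of 153396 merged peaks had enough counts to be tested. A positive interaction means that accessibility moved more towards the TEB in basal cells than in luminal cells, and a negative one the reverse. All cells came from C57BL/6 mice carrying an E-cadherin-GFP reporter at 5 weeks of age, and the labels give no treatment and no other allele. TEBs and ducts were micro-dissected, and from each structure luminal cells were sorted as Lin- CD29+ CD24+ Ecad-GFPhi and basal cells as Lin- CD29+ CD24+ Ecad-GFPlo. Replicates were separate pools of mice, and a further basal duct preparation had been dropped for yielding too few cells, which left that group with the fewest libraries. In sorted bulk populations, a site open in fewer cells and a site less open in every cell cannot be told apart, and the luminal gate held both progenitor and hormone-sensing cells.

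TEBs are the bulbous tips that drive ductal elongation in puberty, with an outer layer of cap cells over a multilayered body. Luminal cells line the lumen of the mature duct, and basal cells, mostly contractile myoepithelium, wrap around them. ATAC-seq uses a transposase that inserts into open chromatin, so reads pile up at active promoters and at distal sites such as enhancers. Promoters tend to be open in many cell types, whereas distal sites carry most of the difference between lineages.

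The libraries differed in depth and in background with structure and lineage. The total count in peaks was 6816197 and 9986384 in the basal duct libraries, 4650216 to 5561051 in luminal ducts, 2960093 to 3738324 in luminal TEBs and only 1821942 to 2489582 in basal TEBs. Peaks made mostly (over 50%) of soft-masked repeats took a share of the counts of 2.40% and 2.45% in basal ducts, 4.46% to 5.96% in luminal ducts, 5.58% to 7.21% in luminal TEBs and 7.03%, 9.75% and 16.2% in basal TEBs. With all libraries thinned to the smallest, the interaction calls described below fell from 9560 to 3033 positive and from 8202 to 881 negative. Thinning also left fewer counts per peak and only 75059 peaks tested. Without soft-masked peaks the calls were 7989 positive and 5271 negative. The part that depth and background played in single calls was not tested. Several lineage markers separated the sorted populations in both structures. The promoter of Krt17, a basal keratin, averaged 66.5 and 31.6 CPM (counts scaled to a common library size with TMM factors) in basal duct and TEB against 3.15 and 3.92 in luminal duct and TEB. The promoter of Foxa1, a luminal transcription factor, averaged 57.4 and 57.2 CPM in luminal duct and TEB against 10.7 and 5.58 in basal duct and TEB. Other luminal markers separated the lineages in one structure only. Krt8, a luminal keratin, averaged 52.5 CPM in basal ducts and 56.9 in luminal ducts, where the libraries overlapped, and Elf5 averaged 4.88 in basal TEBs and 5.77 in luminal TEBs.

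The interaction was called (edgeR quasi-likelihood test, Benjamini-Hochberg adjusted p under 0.05) at 9560 peaks in the positive direction, 7.54% of those tested, and at 8202 peaks in the negative direction, 6.47%. At most of these peaks a change was called in basal cells and none in luminal cells. A luminal change that was not called is not shown to be 0. At 8923 peaks, here called basal-only gains, accessibility rose in basal TEBs, the interaction was positive and no luminal change was called. At 7328 peaks, the basal-only losses, it fell in basal TEBs under the same conditions. The luminal change was within 0.5 log2 of 0 at 6045 of the basal-only gains and 5317 of the basal-only losses. Luminal-only gains numbered 15 and luminal-only losses 14. In a further 16 peaks basal cells gained and luminal cells lost accessibility, and in 8 peaks basal cells lost and luminal cells gained it. The counts leaned on single libraries: without basal duct replicate 1 the interaction was called at 2559 peaks in the positive and 3036 in the negative direction, and without basal duct replicate 3 at 5221 and 5545. Both lineages changed in the same direction by different amounts at 3 peaks, and at 1455 peaks the interaction was called with neither change called on its own. The basal change ranged far more widely than the luminal change, as the scatter of both changes shows.

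**Figure D1:**
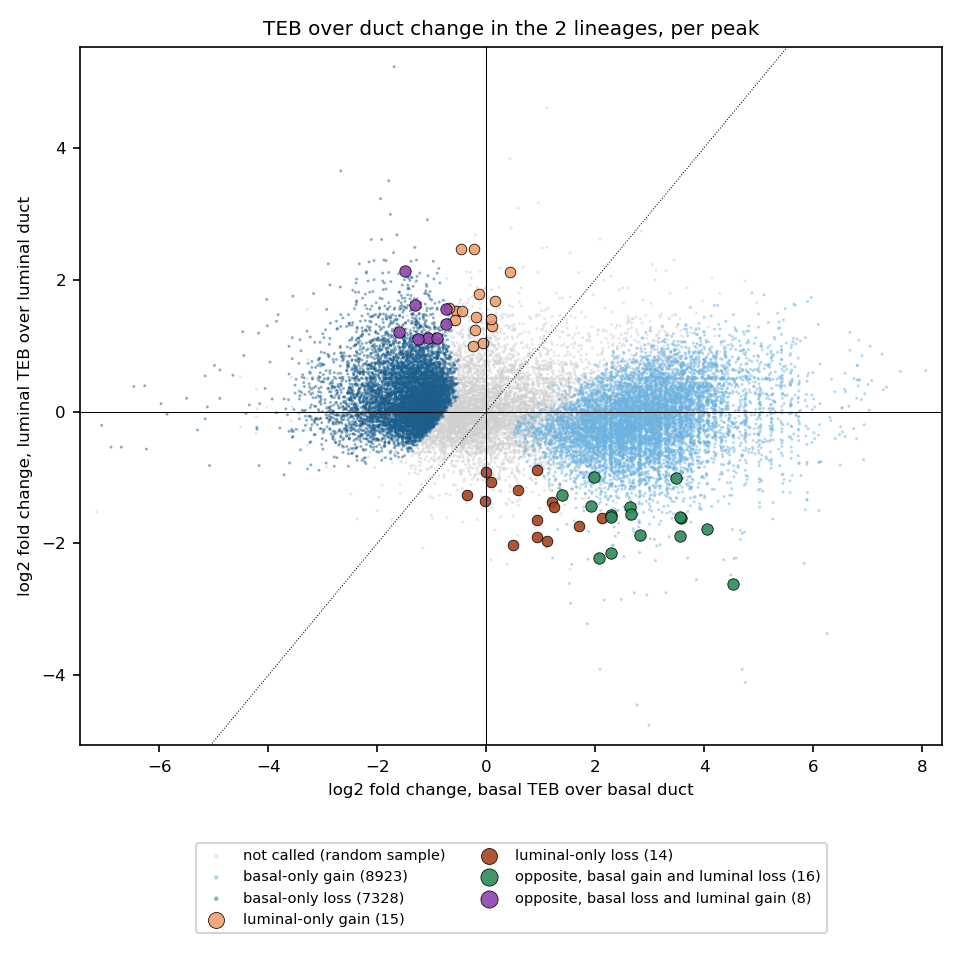
Log2 fold change of TEB over duct in luminal cells (y axis) against basal cells (x axis), 1 point per peak, coloured by class with the number of peaks in brackets. Grey points are a random sample of peaks without a called interaction and the dotted line marks equal change. The 8923 basal-only gains and 7328 basal-only losses lie to the right and left near a luminal change of 0, and the 16 and 8 opposite sites lie in the lower right and upper left quadrants.

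The sequences at the strongest distal site of each class are given here because the results below turn on them, as the middle 300 bases of each peak on the plus strand of GRCm38 (mm10). Capitals mark matches to any of 18 transcription factor consensus motifs searched on both strands, except in the N6amt1 site, where no motif matched and capitals mark a run of 20 bases that recurs.
The basal-only gain nearest N6amt1, chr16:86820866-86821165: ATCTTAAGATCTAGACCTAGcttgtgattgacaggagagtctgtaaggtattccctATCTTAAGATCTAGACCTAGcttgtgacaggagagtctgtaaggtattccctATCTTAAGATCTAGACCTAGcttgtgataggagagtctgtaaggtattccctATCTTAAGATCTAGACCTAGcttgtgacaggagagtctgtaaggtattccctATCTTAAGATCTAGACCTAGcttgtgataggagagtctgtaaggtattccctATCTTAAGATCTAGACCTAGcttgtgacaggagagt
The basal-only loss nearest Clic6, chr16:92551149-92551448: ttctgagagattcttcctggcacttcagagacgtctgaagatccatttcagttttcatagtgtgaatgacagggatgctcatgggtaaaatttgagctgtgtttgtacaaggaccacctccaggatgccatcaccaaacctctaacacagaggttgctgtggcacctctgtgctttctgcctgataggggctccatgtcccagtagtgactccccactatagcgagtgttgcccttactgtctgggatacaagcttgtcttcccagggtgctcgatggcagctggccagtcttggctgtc
The luminal-only gain nearest Mroh5, chr15:73916116-73916415: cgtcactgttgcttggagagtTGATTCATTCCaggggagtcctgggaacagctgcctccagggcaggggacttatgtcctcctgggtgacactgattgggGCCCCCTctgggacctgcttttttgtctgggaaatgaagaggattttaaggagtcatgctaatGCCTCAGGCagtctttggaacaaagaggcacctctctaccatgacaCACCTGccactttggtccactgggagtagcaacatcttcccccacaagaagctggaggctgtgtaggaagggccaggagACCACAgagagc
The luminal-only loss nearest Cobl, chr11:12811805-12812104: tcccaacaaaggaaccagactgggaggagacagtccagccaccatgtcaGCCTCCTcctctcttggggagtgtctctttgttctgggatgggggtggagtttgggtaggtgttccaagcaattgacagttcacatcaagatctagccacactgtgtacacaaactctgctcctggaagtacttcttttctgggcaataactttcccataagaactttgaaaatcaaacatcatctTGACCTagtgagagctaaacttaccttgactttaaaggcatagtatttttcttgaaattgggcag
The opposite site nearest Zbbx, gained in basal and lost in luminal cells, chr3:74613156-74613455: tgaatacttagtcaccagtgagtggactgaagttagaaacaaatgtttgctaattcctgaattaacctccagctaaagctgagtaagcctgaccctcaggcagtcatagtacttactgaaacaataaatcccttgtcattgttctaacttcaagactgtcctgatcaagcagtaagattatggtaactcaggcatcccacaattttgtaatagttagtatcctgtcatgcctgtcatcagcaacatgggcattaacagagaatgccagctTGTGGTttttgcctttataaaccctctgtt
The opposite site nearest Sdk2, lost in basal and gained in luminal cells, chr11:113927347-113927646: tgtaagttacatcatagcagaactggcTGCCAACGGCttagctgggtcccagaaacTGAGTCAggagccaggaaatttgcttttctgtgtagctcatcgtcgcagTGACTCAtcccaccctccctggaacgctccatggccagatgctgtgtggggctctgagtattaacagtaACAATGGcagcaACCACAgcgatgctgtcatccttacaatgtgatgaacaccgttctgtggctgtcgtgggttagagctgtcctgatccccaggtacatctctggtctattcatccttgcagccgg
The N6amt1 window was a tandem repeat, with the capital run found 6 times at a spacing of 52 to 56 bases, although only 10.9% of the peak was soft-masked. The Clic6 window held none of the 18 motifs. The Mroh5 window held an AP-1 match (TGANTCA) overlapping a TEAD match (GGAATG, here on the minus strand), and the Sdk2 window held 2 AP-1 matches with SOX (ACAATGG) and RUNX (TGTGGT) matches. The Zbbx window held a single RUNX match and the Cobl window 2 matches, to the CTCF core (AGGNGGC) and a nuclear receptor half-site (AGGTCA). A match is only a description of the letters and says nothing of which factor was bound.

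Basal-only gains were largely distal: 81.2% lay over 10 kb from the nearest protein-coding transcription start site (TSS) and 1.63% within 0.5 kb, against 66.7% and 12.6% of all peaks tested. They were sites almost closed in basal ducts. Their median accessibility was 0.425 CPM in basal ducts, 3.49 in basal TEBs, 4.11 in luminal ducts and 3.59 in luminal TEBs, whereas the medians over all peaks tested were 3.23, 3.52, 3.57 and 3.60 CPM. The luminal duct level exceeded the basal duct level by test at 78.8% of them, against 35.3% of all peaks tested. The luminal TEB level exceeded the basal TEB level at 29.6%, near the 26.6% of all peaks tested. The share in ducts follows in part from the class rule, which favours sites low in basal ducts. Basal TEBs had the highest mean of the 4 groups at 3972 sites and luminal ducts at 3757. Repeat sequence was frequent, with 2933 sites (32.9%) over 50% soft-masked against 7.80% of all peaks tested, and the basal TEB libraries also carried the highest share of repeat counts. In the 5990 sites that were not soft-masked, the medians were 0.425, 2.73, 5.71 and 5.01 CPM in the same order. Both basal duct libraries together held 3 counts or fewer at 2424 sites, so fold changes there rest on very few reads.

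The strongest distal gain, chr16:86820719-86821312, lay between genes 533 kb from the TSS of N6amt1, a methyltransferase gene. It had 6.54 and 8.91 CPM in basal ducts, 58.4, 70.4 and 87.1 in basal TEBs, 36.4, 39.9 and 43.4 in luminal ducts and 25.8, 38.5 and 54.4 in luminal TEBs. Basal duct libraries were far below all others, the basal groups did not overlap, and the luminal TEB values spread across those of the ducts. The interaction was 3.26 ± 0.41 (log2, SE between samples; edgeR adjusted p = 1.4e-09), with a basal change of 3.23 ± 0.27 and a luminal change of -0.02 ± 0.32. This is the tandem repeat printed above, and the part of reads from other copies in its values was not tested.

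A second site, chr18:46997727-46998333 in an intron of Commd10, was highest in basal TEBs, with 21.4, 22.5 and 23.0 CPM against 4.06 and 5.0 in basal ducts. Luminal ducts had 9.15, 9.75 and 10.2 CPM and luminal TEBs 3.79, 4.28 and 5.27. The luminal groups did not overlap either and moved the other way, but the luminal change of -1.11 ± 0.13 was not called (edgeR adjusted p = 0.13). The interaction at Commd10 was 3.42 ± 0.19 (edgeR adjusted p = 1.6e-07). Another site, chr8:20592794-20593765, lay 21.2 kb from Gm21119, a predicted gene, and had mean levels of 5.82 CPM in basal ducts, 27.4 in basal TEBs, 73.1 in luminal ducts and 64.5 in luminal TEBs, with an interaction of 2.39 ± 0.23 (edgeR adjusted p = 7.0e-07).

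Basal-only losses had another profile. Of these, 52.3% lay over 10 kb from a TSS and 29.4% within 0.5 kb, 0.464% were soft-masked, and their median GC content was 52.8% against 47.4% at basal-only gains and 49.4% over all peaks tested. Median accessibility was 18 CPM in basal ducts, 6.64 in basal TEBs, 7.74 in luminal ducts and 8.86 in luminal TEBs. Basal ducts were the highest of the 4 groups at 81.8% of the sites. Basal cells were called above luminal cells at 69.4% of them in ducts and at 12.8% in TEBs, against 31.6% and 22.9% of all peaks tested. These shares follow in part from the class rule, which favours sites high in basal ducts and low in basal TEBs. At 610 of these sites the lineage called higher switched from basal in the duct to luminal in the TEB, and at 1020 basal-only gains it switched from luminal in the duct to basal in the TEB. These lineage contrasts use the same libraries as the classes and are a description, not a test.

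The site at chr16:92550182-92552416, 52.0 kb from Clic6, a chloride intracellular channel gene, had 77.2 and 93.2 CPM in basal ducts and 12.1, 12.3 and 13.6 in basal TEBs. Luminal levels were 49.0, 69.9 and 70.9 CPM in ducts and 55.8, 63.0 and 64.4 in TEBs, which overlapped. The interaction was -2.70 ± 0.23 (edgeR adjusted p = 8.1e-09). Near Sik2, a salt-inducible kinase gene, chr9:51032873-51033734 had 20.8 and 30.3 CPM in basal ducts, 2.20, 2.47 and 2.81 in basal TEBs, 12.0, 16.6 and 21.8 in luminal ducts and 22.2, 22.4 and 23.9 in luminal TEBs. Accessibility there fell in basal TEBs, while luminal TEBs lay above luminal ducts without overlap, a change of 0.44 ± 0.24 that was not called (edgeR adjusted p = 0.50), and the interaction was -3.78 ± 0.37 (edgeR adjusted p = 2.5e-08). An intronic site of Mical3, chr6:121017346-121018510, averaged 36.2 CPM in basal ducts, 6.25 in basal TEBs, 49.4 in luminal ducts and 52.1 in luminal TEBs, with an interaction of -2.61 ± 0.17 (edgeR adjusted p = 1.6e-07).

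**Figure D2:**
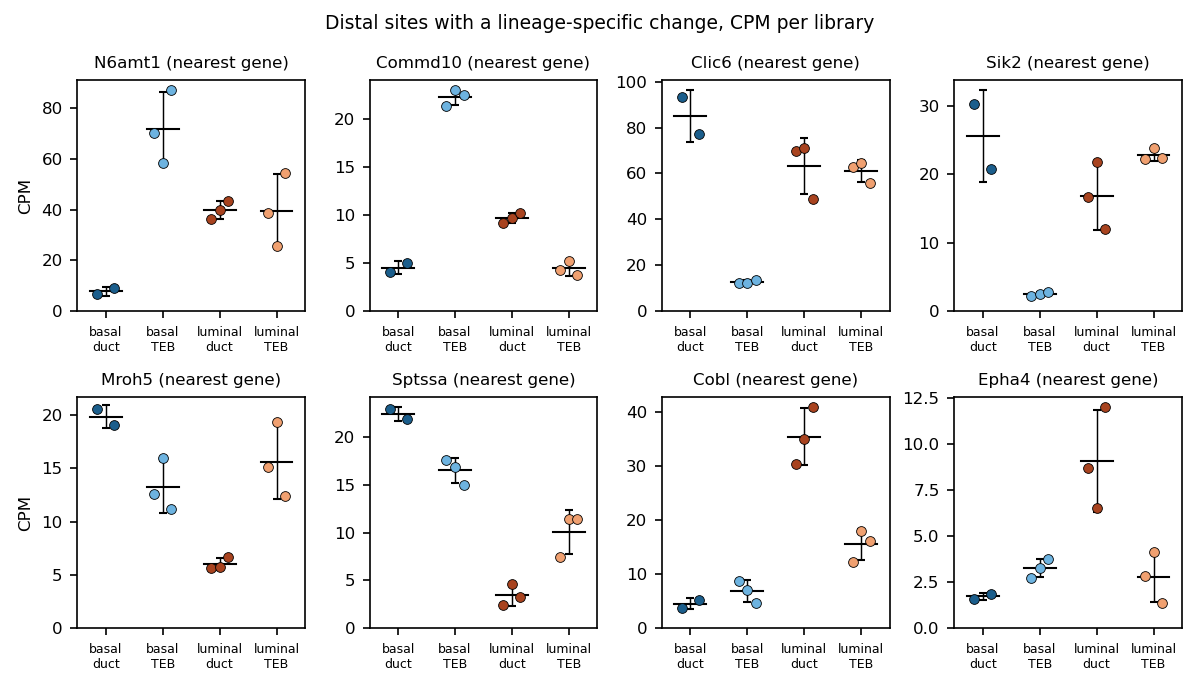
CPM of each library (points) with the group mean (line) and SD (bar) at 8 distal sites, each named by its nearest gene. A change was called in basal cells only at the sites near N6amt1, Commd10, Clic6 and Sik2, with 58.4 to 87.1 CPM in basal TEBs against 6.54 and 8.91 in basal ducts at N6amt1. A change was called in luminal cells only near Mroh5, Sptssa, Cobl and Epha4. Luminal ducts and TEBs also did not overlap at Commd10 and Sik2, nor basal ducts and TEBs at Mroh5, Sptssa and Epha4, without a call.

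Motif content differed between the distal sites of the classes. Among sites over 10 kb from a TSS that were not soft-masked, a forkhead (FOX) consensus, TGTTTAC, occurred in 14.6% of 4609 basal-only gains, 5.04% of 3809 basal-only losses and 7.90% of all 76168 sites of that kind. The Grainyhead-like (GRHL) consensus, AACCNGTT, was found in 5.75%, 2.1% and 3.54% in the same order. Conversely, the TEAD consensus, GGAATG, occurred in 17.4% of basal-only gains and 30.2% of basal-only losses against 22.9% of all sites, and the AP-1 consensus, TGANTCA, in 33.4%, 38.6% and 30.9%. The nuclear factor I half-site, TTGGCA, stood at 19.4%, 28% and 24.2%. The RUNX consensus, TGTGGT, stood at 24.8%, 27.3% and 24.6%. FOX factors such as Foxa1 act in luminal cells and TEAD factors are effectors of Hippo signalling. The shares are descriptions over overlapping motifs in windows of equal length, and classes differ in GC content.

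Changes called in luminal cells alone were few. The basal change was within 0.5 log2 of 0 at 12 of the 15 luminal-only gains but at only 4 of the 14 luminal-only losses. The median basal change at these losses was 0.93, so most were not shown to be confined to luminal cells. In the simple luminal contrast, 53 peaks rose and 64 fell in TEBs, against 19937 and 18592 in basal cells, in the same fit. The luminal total of 117 depended on how the spread was estimated, since edgeR's exact test on luminal libraries alone called 1175 peaks and limma-voom 1087. Leaving out any 1 luminal library left 1 to 4 luminal-only gains and 0 to 5 luminal-only losses. Of the 15 luminal-only gains, basal ducts were above luminal ducts at 14, the lineage difference was smaller in TEBs at 13, and 9 lay over 10 kb from a TSS. Over all peaks tested the lineage difference was smaller in TEBs at 65.1%. The first 2 of these counts follow in part from the class rule and are no separate result. The site chr15:73915701-73916830, 76.0 kb from Mroh5, had 5.66, 5.73 and 6.65 CPM in luminal ducts and 12.4, 15.1 and 19.4 in luminal TEBs. Basal levels there were 19.1 and 20.6 CPM in ducts and 11.2, 12.6 and 16.0 in TEBs, groups that did not overlap either, although the change was not called (edgeR adjusted p = 0.079). The luminal change was 1.39 ± 0.19 and the interaction -1.96 ± 0.25 (edgeR adjusted p = 2.1e-04). Near Sptssa, a gene of sphingolipid synthesis, chr12:54460095-54460883 went from a mean of 3.44 CPM in luminal ducts to 10.1 in luminal TEBs, with 22.4 and 16.5 in basal ducts and TEBs, where libraries also did not overlap, and an interaction of -1.96 ± 0.32 (edgeR adjusted p = 5.6e-04). A site nearest Tmem222, in an intron of Wdtc1 (chr4:133298596-133299895), averaged 3.23 and 8.58 CPM in luminal ducts and TEBs and 54.1 and 47.2 in basal ducts and TEBs, with an interaction of -1.62 ± 0.52 (edgeR adjusted p = 0.0038), and without luminal TEB replicate 2 it was -1.11 and not called (edgeR adjusted p = 0.076).

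Promoters made up 4 of the 15 luminal-only gains. The promoter of Tpm1, an actin-binding tropomyosin of contractile cells (chr9:67048858-67050101), had 6.43, 6.69 and 10.7 CPM in luminal ducts and 14.5, 16.8 and 17.2 in luminal TEBs, against 47.2 and 52.2 in basal ducts and 38.4, 49.8 and 55.0 in basal TEBs. The luminal change was 1.04 ± 0.23 (edgeR adjusted p = 0.047) and the interaction -1.10 ± 0.29 (edgeR adjusted p = 0.012), but the interaction call was lost with TMM factors from promoter peaks, where it was -0.69 (edgeR adjusted p = 0.065). The others, named after their values were seen, were Has2, which makes hyaluronan, with mean levels of 3.16 and 8.52 CPM in luminal ducts and TEBs, the type II keratin gene Krt73, and Lrrc3c, with 2.38 and 7.36. Krt73 had 0.222, 0.764 and 0.871 CPM in luminal ducts and 1.67, 2.07 and 6.84 in luminal TEBs, of which replicate 1 alone was high, and without that library its interaction of -2.68 was -1.78 and not called (edgeR adjusted p = 0.0040 and 0.098). The interaction calls at Tpm1 and Has2 were lost without 3 and 6 of the 11 libraries in turn, and the call at Lrrc3c was kept in all 11 such fits.

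The 14 luminal-only losses were mostly luminal sites: luminal ducts were above basal ducts at all but 3, and the lineage difference was smaller in TEBs at 11. Both counts follow in part from the class rule, as for the luminal-only gains. The site chr11:12811221-12812689, 346 kb from Cobl, an actin nucleator gene, had 30.3, 35.0 and 40.8 CPM in luminal ducts, 12.3, 16.2 and 18 in luminal TEBs, 3.83 and 5.31 in basal ducts and 4.69, 6.99 and 8.79 in basal TEBs. It fell in luminal TEBs by 1.19 ± 0.20 (log2; edgeR adjusted p = 0.0037), with an interaction of 1.77 ± 0.38 (edgeR adjusted p = 0.0027). Near Epha4, an ephrin receptor gene, chr1:77708456-77708955 averaged 9.06 and 2.80 CPM in luminal ducts and TEBs and 1.73 and 3.26 in basal ducts and TEBs, again without overlap in either lineage (interaction 2.57 ± 0.48, edgeR adjusted p = 0.0057). The calls at Cobl and Epha4 were both lost without basal duct replicate 1, at interactions of 1.47 and 2.38 (edgeR adjusted p = 0.056 and 0.051).

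A single luminal-only loss was a promoter, that of Bcl11a, a zinc-finger transcription factor of mammary progenitors, which was picked out after its values were seen. It had 19.7, 20.5 and 26.1 CPM in luminal ducts, 8.55, 9.16 and 9.64 in luminal TEBs, 22.1 and 24.7 in basal ducts and 16.9, 18.1 and 19.3 in basal TEBs. The basal groups did not overlap either, yet the basal change of -0.36 was not called (edgeR adjusted p = 0.22), and the interaction was 0.91 ± 0.17 (edgeR adjusted p = 0.046). The call was lost in 9 of the 11 fits that left out 1 library, at interactions of 0.77 to 1.02 over the 11 fits and edgeR adjusted p of up to 0.22. It was kept without basal TEB replicate 3 and without luminal duct replicate 2.

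Opposite changes were called at 24 sites, none of them within 0.5 kb of a TSS. In the 16 sites gained in basal and lost in luminal TEBs, luminal ducts were the highest group and basal ducts the lowest, and both TEB means lay between the duct means at all 16. Median accessibility was 0.330 CPM in basal ducts, 2.07 in basal TEBs, 3.70 in luminal TEBs and 11 in luminal ducts. In the 8 sites lost in basal and gained in luminal TEBs, the medians were 19.5, 9.32, 13.0 and 5.39 CPM in the same order, and both TEB means lay between the duct means at 7. Over all peaks tested the lineage difference was smaller in TEBs than in ducts at 65.1%. It was so at 16 of 16 and 7 of 8 of the opposite sites, the exception being a site near Sox9. Opposite changes bring the lineages closer wherever the gaining lineage is the lower in ducts, unless they overshoot. These counts thus follow in part from the class rule and are no separate result.

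**Figure D3:**
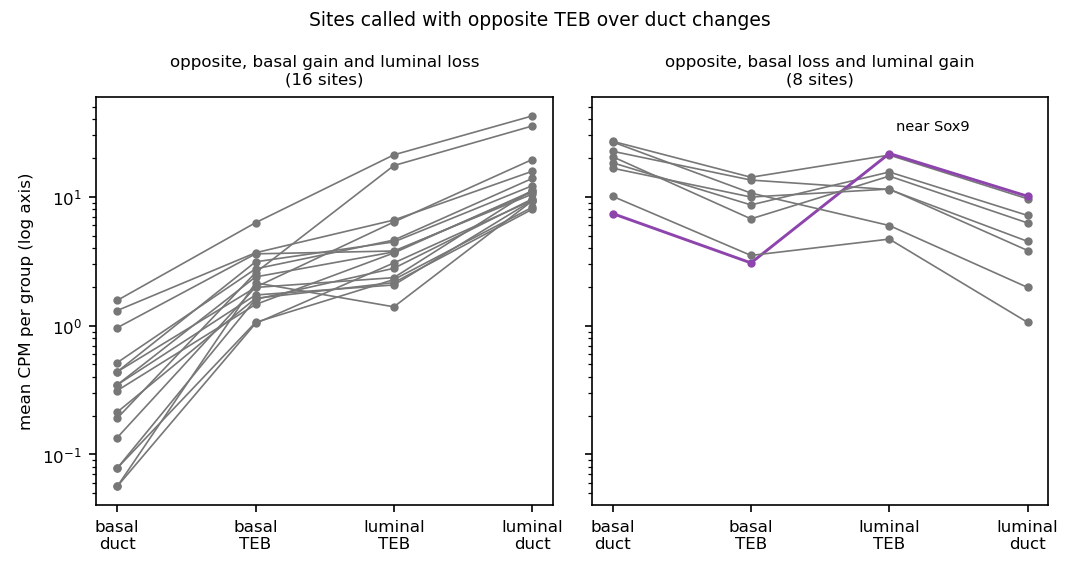
Mean CPM per group on a log axis for the 16 sites gained in basal and lost in luminal TEBs (left) and the 8 sites lost in basal and gained in luminal TEBs (right), 1 line per site. All 16 lines on the left have both TEB means between the duct means, as do 7 of the 8 on the right, the exception being the site near Sox9.

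The site near Zbbx, chr3:74612857-74613754, 530 kb from that TSS, had 1.56 and 1.58 CPM in basal ducts, 5.35, 6.05 and 7.50 in basal TEBs, 19.3, 20.8 and 23.6 in luminal TEBs and 39.4, 39.4 and 48.8 in luminal ducts. No group overlapped another. The basal change was 1.98 ± 0.13 (edgeR adjusted p = 1.2e-04), the luminal change -0.99 ± 0.13 (edgeR adjusted p = 0.0080) and the interaction 2.97 ± 0.19 (edgeR adjusted p = 1.0e-05). Near Alx1, a homeobox gene, chr10:102942962-102943646 had 34.8, 35.7 and 35.9 CPM in luminal ducts and 16.9, 17.8 and 18 in luminal TEBs, with 1 and 2 counts in the basal duct libraries and 1, 7 and 8 in the basal TEB libraries. The ratio of basal TEB to basal duct CPM at Alx1 was 12.8, with a 95% exact interval of 3.65 to 68.3 for counting error only. The site 12.6 kb from Tmem74, chr15:43856948-43857465, held 0 and 1 counts in basal ducts and 2, 5 and 7 in basal TEBs, a ratio of 33.5 (95% exact interval 5.09 to 1416), and fell from 7.26, 9.53 and 11.1 CPM in luminal ducts to 0, 1.71 and 2.5 in luminal TEBs. The fitted interactions, 4.50 at Alx1 and 7.16 at Tmem74 (edgeR adjusted p = 1.1e-04 and 2.5e-05), depend on the small count added before taking logs and give no size beyond these intervals.

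In the reverse direction, the intronic Sdk2 site chr11:113927003-113927990 had 26.4 and 27.0 CPM in basal ducts, 9.34, 11.1 and 11.7 in basal TEBs, 4.48, 6.27 and 7.22 in luminal TEBs and 1.53, 1.96 and 2.44 in luminal ducts. Accessibility fell in basal TEBs by 1.31 ± 0.10 and rose in luminal TEBs by 1.62 ± 0.24, an interaction of -2.92 ± 0.26 (edgeR adjusted p = 1.5e-05). Sites near Klf14, a Krüppel-like factor gene (chr6:31148281-31148937), and Cenpf, a kinetochore gene (chr1:189704979-189705737), had interactions of -2.02 ± 0.37 and -2.18 ± 0.24 (edgeR adjusted p = 7.0e-05 and 8.8e-05). Mean levels near Cenpf were 18.4 and 8.66 CPM in basal ducts and TEBs and 7.17 and 15.6 in luminal ducts and TEBs, so that the lineage with the higher mean differed between structures.

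The remaining sites of this class, described because the class is small, included genes with known mammary roles. A site 57.2 kb from Axin2, a target and feedback inhibitor of Wnt signalling, averaged 22.6 and 13.5 CPM in basal ducts and TEBs and 4.51 and 11.4 in luminal ducts and TEBs. The site 166 kb from Sox9, a transcription factor of luminal progenitors, had 6.72 and 8.11 CPM in basal ducts, 2.34, 2.75 and 4.11 in basal TEBs, 6.65, 11.1 and 12.4 in luminal ducts and 21.4, 21.7 and 21.9 in luminal TEBs, so the lineages were further apart in TEBs than in ducts. An intronic Trim47 site averaged 20.5, 6.75, 6.27 and 14.5 CPM in basal duct, basal TEB, luminal duct and luminal TEB, with an interaction of -2.80 ± 0.22 (edgeR adjusted p = 3.2e-06). The site 9.36 kb from Itgb4, the hemidesmosome integrin gene, lay in an exon of Sap30bp and averaged 10.1, 3.51, 1.06 and 4.70 CPM in that order.

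The direction of change at opposite sites was steadier than their class. These sites were picked for opposite called changes in the same counts, so signs kept under another scaling are no separate support. All 24 kept both signs and a called interaction with each of 4 other scalings, but the luminal change on its own was called at 0 of 24 with DESeq2, 13 with GC-bin offsets, 15 with TMM factors from promoter peaks and 24 with loess offsets. Without luminal duct replicate 1 it was called at 1 of 24, and without luminal TEB replicate 1, 2 or 3 at 2, 3 and 1.

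With library-wide TMM, promoters showed the opposite balance to distal sites, and that balance depended on scaling and on depth. Each gene was given the promoter peak, within 0.5 kb of a TSS, with the highest mean level, which gave 13435 peaks for 14578 genes. The interaction was called positive at 134 of these peaks (0.997%) and negative at 1993 (14.8%), whereas among peaks over 10 kb from a TSS it was positive at 9.15% and negative at 5.23%. The median interaction was -0.43 log2 over promoter peaks and 0.05 over all peaks tested. With TMM factors computed from promoter peaks alone, the promoter median was -0.02, and 847 promoter peaks were called positive and 582 negative. The split over all peaks then moved from 53.8% positive to 83.1%, and it was 69.0% with DESeq2. With all libraries thinned to the smallest, the promoter median was 0.00, 294 promoter peaks were called positive and 138 negative, and 77.5% of all calls were positive. The share of promoters on either side of 0 thus changed with the reference chosen and with depth made equal, and single promoters are given beside the promoter median. With each of 5 scalings (library-wide TMM, DESeq2 size factors, promoter TMM, loess and GC-bin offsets), 106 promoter peaks were called positive and 360 negative.

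**Figure D4:**
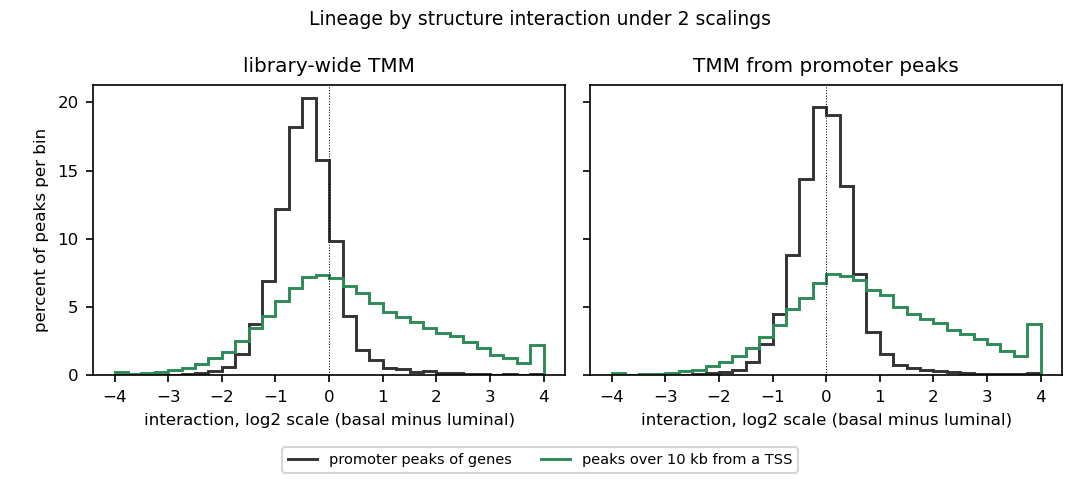
Percent of promoter peaks (black) and of peaks over 10 kb from a TSS (green) in bins of the interaction on the log2 scale, with library-wide TMM (left) and TMM from promoter peaks (right). Values past the ends of the axis are gathered in the end bins. The promoter median is -0.43 on the left and -0.02 on the right, and distal peaks have a long positive tail in both.

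Promoters that rose in basal TEBs alone were few. The promoter of Adarb2, an RNA-editing enzyme relative without known editing activity (chr13:8202534-8203650), had 1.13 and 1.25 CPM in basal ducts, 4.94, 4.95 and 6.56 in basal TEBs, 44.8, 46.1 and 50.5 in luminal ducts and 29.7, 40.3 and 40.8 in luminal TEBs. The interaction was 2.54 ± 0.21 (edgeR adjusted p = 2.1e-04), and basal TEBs stayed far below luminal cells. The promoter of Ugt1a1, a glucuronosyltransferase gene (chr1:88211514-88212554), had 3.94 and 4.69 CPM in basal ducts, 10.7, 14.3 and 16.4 in basal TEBs, 34.0, 41.3 and 48.1 in luminal ducts and 27.5, 32.5 and 38.9 in luminal TEBs (interaction 2.00 ± 0.29, edgeR adjusted p = 1.3e-04). It lies among exons shared by the Ugt1a cluster. Gm17535 and Gm11168, predicted genes on chromosome 9 whose promoter peaks were 97.2% and 100% soft-masked, had interactions of 1.82 ± 0.41 and 1.77 ± 0.41 (edgeR adjusted p = 6.1e-05 and 1.4e-04) at mean levels of 812 and 2386 CPM in basal TEBs. Repeats of this kind have near-identical copies, and these values are uncertain.

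Elf5, an ETS factor that specifies alveolar and luminal progenitor cells, had a low promoter peak (chr2:103423739-103424190) with 1.13 and 2.19 CPM in basal ducts, 2.88, 5.15 and 6.60 in basal TEBs, 5.66, 6.87 and 8.60 in luminal ducts and 3.79, 5.83 and 7.70 in luminal TEBs. The basal groups did not overlap and the luminal groups did. The interaction was 1.83 ± 0.58 (edgeR adjusted p = 0.028), and the call was lost without any 1 of basal duct replicate 1, basal TEB replicates 1 or 3, luminal duct replicate 2 or luminal TEB replicate 3, at interactions of 1.32, 1.59, 1.77, 1.69 and 1.58 (edgeR adjusted p = 0.23, 0.079, 0.054, 0.069 and 0.075). Dmrta1, a DMRT-family transcription factor (chr4:89687911-89688732), had 3.61 and 5.16 CPM in basal ducts, 10.4, 13.6 and 14.1 in basal TEBs, 3.25, 3.92 and 4.65 in luminal ducts and 3.44, 3.71 and 4.72 in luminal TEBs. It stood above the other 3 groups only in basal TEBs, with an interaction of 1.53 ± 0.32 (edgeR adjusted p = 0.027) that was lost without basal duct replicate 1, luminal duct replicate 3 or luminal TEB replicate 1 or 3, at 1.22, 1.45, 1.44 and 1.41 (edgeR adjusted p = 0.19, 0.064, 0.068 and 0.069).

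Among basal-only losses at promoters above the median level, those with the most negative interactions whose basal groups did not overlap are given here, and some promoters at lower levels had interactions further from 0, as Ntn4 did. Syne3, a nesprin of the nuclear envelope (chr12:104998688-104999531), had 16.3 and 20.4 CPM in basal ducts, 0.469, 3.30 and 3.70 in basal TEBs, 46.3, 48.1 and 51.4 in luminal ducts and 37.9, 39.3 and 43.9 in luminal TEBs, an interaction of -2.60 ± 0.71 (edgeR adjusted p = 2.6e-05). Cdk14, a cyclin-dependent kinase gene (chr5:5379695-5381426), averaged 51.3 and 11.3 CPM in basal ducts and TEBs and 24.4 and 22.7 in luminal ducts and TEBs, with an interaction of -2.04 ± 0.47 (edgeR adjusted p = 4.1e-05). Ergic1, which encodes a protein of the compartment between endoplasmic reticulum and Golgi (chr17:26620982-26622025), had an interaction of -1.96 ± 0.24 (edgeR adjusted p = 2.5e-05), and Gcnt2, a glycan-branching enzyme (chr13:40916555-40917959), of -1.88 ± 0.25 (edgeR adjusted p = 2.5e-05). In luminal cells the change was between -0.27 and 0.20 at these 4 promoters, and none was called, although the luminal groups at Syne3 did not overlap.

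**Figure D5:**
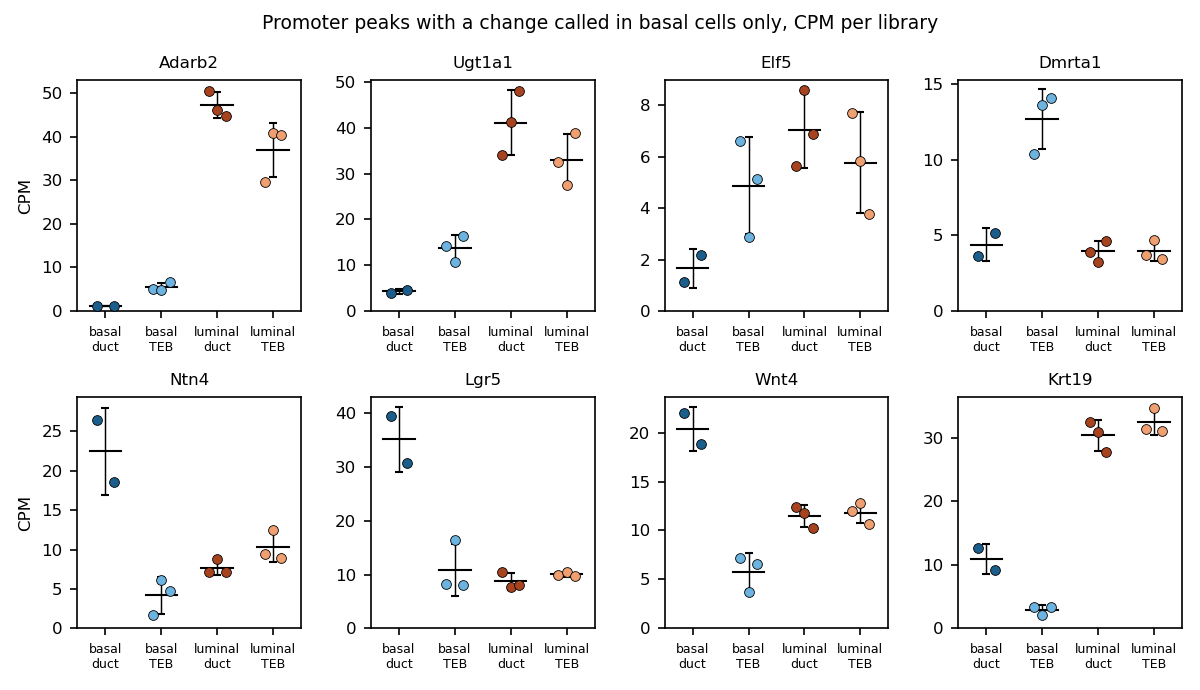
CPM of each library (points) with the group mean (line) and SD (bar) at 8 promoter peaks with a change called in basal cells only. Adarb2, Ugt1a1, Elf5 and Dmrta1 were higher in basal TEBs than in basal ducts and Ntn4, Lgr5, Wnt4 and Krt19 lower, while luminal duct and TEB libraries overlapped except at Adarb2 and Ntn4, as at Krt19 with 27.7 to 32.5 CPM in ducts and 31.0 to 34.7 in TEBs.

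The promoter lists were read against the 0.997% positive and 14.8% negative over all promoter peaks, and a list near those shares is no result about its genes. Many of the calls leaned on single libraries. Of 57 list genes with a called promoter, 15 were called in each of the 11 fits that left out 1 library, namely Cdk6, Cldn4, Col5a1, Irx4, Krt14, Krt19, Lgr5, Met, Ntn4, Pdgfa, Plxna1, Slit3, Tgfa, Wnt4 and Wnt5b, and 18 were called in 5 or fewer of them. Among 24 pan-luminal genes, 5 were called negative (20.8%) and 0 positive, with a median of -0.42. Krt19, a luminal keratin (chr11:100145780-100146459), fell in basal cells from 9.22 and 12.6 CPM in ducts to 2.06, 3.28 and 3.30 in TEBs, and had 27.7, 30.8 and 32.5 in luminal ducts and 31.0, 31.4 and 34.7 in luminal TEBs, an interaction of -2.05 ± 0.30 (edgeR adjusted p = 4.8e-04). Cldn4, a tight junction claudin, averaged 21.3, 8.79, 47.8 and 48.9 CPM in basal duct, basal TEB, luminal duct and luminal TEB, with an interaction of -1.28 ± 0.36 (edgeR adjusted p = 0.0059). Basal and luminal promoters were thus further apart in TEBs than in ducts at Krt19 and Cldn4, with lineage differences of -1.46 in ducts and -3.51 in TEBs at Krt19. Krt7 at -1.30, Krt18 at -1.19 and the transcription factor Ovol1 at -0.98 were also called (edgeR adjusted p = 0.018, 0.013 and 0.022). Of these 5, Krt19 and Cldn4 kept their call with each of the 5 scalings. Luminal progenitor genes split, with Elf5 and Bcl11a positive and Cd14, a bacterial lipopolysaccharide co-receptor, Plet1 and the chemokine Cxcl1 negative at -1.11, -1.32 and -0.93 (edgeR adjusted p = 0.013, 0.024 and 0.043), 2 and 3 of 16, of which both positive calls and 0 of the negative ones held with each of the 5 scalings. Without basal duct replicate 1, basal TEB replicate 1 or luminal TEB replicate 3 neither positive call was left. Among 20 hormone-sensing genes, 1 was called, Wnt4.

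Basal identity genes had 5 negative calls of 24 (20.8%) and a median of -0.51. The basal keratin gene Krt14 had 51.6 and 53.8 CPM in basal ducts and 10.4, 17.3 and 25.9 in basal TEBs, with at most 3.44 in any luminal library, and an interaction of -2.51 ± 0.69 (edgeR adjusted p = 0.0047). Irx4, a homeobox gene, averaged 23.9, 12.1, 0.895 and 2.33 CPM in basal duct, basal TEB, luminal duct and luminal TEB (interaction -2.28 ± 0.33, edgeR adjusted p = 0.0067). Lgr5, the R-spondin receptor that amplifies Wnt signals (chr10:115586739-115588093), had 30.8 and 39.4 CPM in basal ducts, 7.96, 8.24 and 16.5 in basal TEBs, 7.64, 7.98 and 10.5 in luminal ducts and 9.64, 9.98 and 10.5 in luminal TEBs. Its interaction was -1.87 ± 0.40 (edgeR adjusted p = 5.4e-04), and basal TEB replicate 2 alone of the basal TEB libraries stayed above the luminal range. Krt17 at -1.40 and Tgfbr3 at -1.22 were also called (edgeR adjusted p = 0.016 and 0.011) but not with promoter TMM, where the edgeR adjusted p was 0.063 for both. The contractile list had 4 negative calls of 26 (15.4%), among them Tpm1, Actg2 at -1.61, Mrtfb at -0.91 and Dmd at -1.11 (edgeR adjusted p = 0.039, 0.028 and 0.032 for the last 3), none of which held with promoter TMM. Mrtfa and Srf, which drive contractile gene transcription, were instead called positive there, at 0.80 and 0.71 (edgeR adjusted p = 0.011 and 0.031). Over all 13435 promoter peaks 847 were called positive with that scaling, a share near that of this list. The turn in direction is thus no result about contractile genes. Without luminal duct replicate 2 or luminal duct replicate 3 the list had 0 calls.

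Wnt pathway genes had 9 negative calls of 25 (36.0%) with a median of -0.86. Without basal duct replicate 1 there were 2 of 25 (8.0%) against 4.02% of all promoter peaks, without luminal duct replicate 3 again 2 of 25 against 8.28%, and without luminal TEB replicate 2 there were 3 of 25 (12.0%) against 9.33%. With promoter TMM only 1 of 25 (4.0%) was called against 4.33% of all promoter peaks. That gene was Wnt4, a Wnt ligand induced by progesterone in luminal cells (chr4:137276788-137277762), with 18.8 and 22 CPM in basal ducts, 3.70, 6.56 and 7.15 in basal TEBs, 10.2, 11.8 and 12.4 in luminal ducts and 10.7, 12.0 and 12.8 in luminal TEBs. Its interaction was -1.89 ± 0.31 with library-wide TMM and -1.48 with promoter TMM (edgeR adjusted p = 8.5e-04 and 0.0066). The others were the ligands Wnt2, Wnt5b and Wnt7b, the receptors Fzd2 and Fzd7, the co-receptors Lrp5 and Lrp6, and Axin2, at -0.75 for Fzd7 to -2.49 for Wnt2 (edgeR adjusted p = 0.050 and 0.035). In the Notch list 2 of 17 were called (11.8%), Heyl, a Notch target repressor, at -1.40 ± 0.25 (edgeR adjusted p = 0.0062) and the feedback inhibitor Nrarp at -0.79 (edgeR adjusted p = 0.041), neither with each of the 5 scalings.

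Growth factor ligands and receptors had 7 negative calls of 22 (31.8%), and 4 (18.2%) with promoter TMM against 4.33% of all promoter peaks. The ligands were Ereg and Tgfa, both of the EGF receptor, and Pdgfa. Ereg averaged 32.2 and 13.2 CPM in basal ducts and TEBs against 3.16 and 4.58 in luminal ducts and TEBs, with an interaction of -1.75 ± 0.54 (edgeR adjusted p = 0.0085). Pdgfa (chr5:138994679-138995632) had 31.1 and 38.3 CPM in basal ducts, 14.0, 14.8 and 15 in basal TEBs, 11.5, 16.8 and 18.7 in luminal ducts and 16.2, 17.8 and 18.2 in luminal TEBs, with an interaction of -1.40 ± 0.26 (edgeR adjusted p = 0.0023). The receptors were Met, the hepatocyte growth factor receptor, at -1.13, Fgfr1 at -0.99 and Fgfr3 at -1.39 (edgeR adjusted p = 0.0063, 0.021 and 0.015), and the seventh was Igfbp3, an insulin-like growth factor binding protein, at -1.49 (edgeR adjusted p = 0.027). Ereg alone of the 7 kept its call with each of the 5 scalings. With GC-bin offsets the calls at the others were all lost, those at Pdgfa and Met with edgeR adjusted p of 0.054 and 0.078. With these offsets 534 of 13435 promoter peaks were negative. The excess of this list over all promoter peaks thus depended on the scaling.

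Axon guidance genes, which also shape branching epithelia, had 6 negative calls of 23 (26.1%), and 3 (13.0%) with promoter TMM. Ntn4, a netrin of the basement membrane (chr10:93640610-93641612), had 18.6 and 26.4 CPM in basal ducts, 1.65, 4.69 and 6.17 in basal TEBs, 7.09, 7.19 and 8.79 in luminal ducts and 8.96, 9.41 and 12.5 in luminal TEBs. Basal cells were above luminal cells in ducts and below them in TEBs, without overlap in either structure, and the interaction was -2.79 ± 0.58 (edgeR adjusted p = 2.5e-05). Slit3, a secreted ligand of Robo receptors, averaged 39.8, 18.3, 1.56 and 3.21 CPM in basal duct, basal TEB, luminal duct and luminal TEB, an interaction of -2.12 ± 0.64 (edgeR adjusted p = 0.0050), and like Ntn4 was called with each of the 5 scalings. Plxna1, a semaphorin receptor, had an interaction of -1.36 ± 0.29 (edgeR adjusted p = 0.0019), a call lost with GC-bin offsets (edgeR adjusted p = 0.052). Slit2, Sema3f and Plxnb1 lay between -0.90 and -0.94.

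The other lists stood near or below the background. Among 25 matrix and basement membrane genes 3 were called negative (12.0%), Lamb3, Agrn and Thbs1, and Thbs1, an adhesive glycoprotein gene (chr2:118111091-118112196), had an interaction of -0.90 ± 0.15 (edgeR adjusted p = 0.023) with neither lineage called by itself, at mean levels of 53.3 and 46.3 CPM in basal ducts and TEBs and 11.2 and 18.2 in luminal ducts and TEBs. Cell cycle genes had 3 of 29 (10.3%), of which Cdk6, a G1 kinase (chr5:3343565-3344659), at -1.27 ± 0.22 (edgeR adjusted p = 0.0022) was called with each of the 5 scalings. AP-1 and early response genes had 2 of 19 (10.5%), Fosl1 and the phosphatase gene Dusp1 at -0.88 ± 0.21 (edgeR adjusted p = 0.017). With promoter TMM the list had 0 negative and 4 positive calls, Jun, Egr1, Egr2 and Klf6, where 847 of all 13435 promoter peaks were positive. The direction of this list thus turned with the scaling. Ribosomal protein genes had 2 of 28 (7.14%), Rpl5 at -1.18 (edgeR adjusted p = 0.015) and Rpl10a at -0.92 ± 0.22 (edgeR adjusted p = 0.014). With promoter TMM they had 0 negative and 2 positive calls, a positive share near that over all promoter peaks. No EMT transcription factor of 10 was called.

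Markers of other cell types were measured for the whole lists. Fibroblast markers had 2 negative calls of 5, Col5a1 at -1.39 ± 0.29 (edgeR adjusted p = 0.0071) and Fbn1 at -1.14 (edgeR adjusted p = 0.033), and the 5 promoters summed to 143 to 157 CPM in basal ducts, 72.6 to 92.6 in basal TEBs, 24.6 to 26.1 in luminal ducts and 20.5 to 24.0 in luminal TEBs. The summed fibroblast level was lower in basal TEBs than in basal ducts without overlap, but this was not particular to that list. Pan-luminal promoters summed to 577 to 675 CPM in basal ducts and 380 to 408 in basal TEBs, and basal identity promoters to 716 to 814 and 390 to 557. The median basal change was -0.90 over the fibroblast promoters and -0.57 over all promoter peaks. The part of fibroblasts in the basal losses was not tested. Col1a2 and Thy1, defining fibroblast genes, averaged 14.3 and 3.73 CPM in basal ducts and 6.27 and 3.21 in basal TEBs. Of 5 Schwann and nerve markers, Ncam1 alone was called, at -1.58 ± 0.26 (edgeR adjusted p = 0.027), a call lost in 14 of 21 alternatives, at -1.17 to -1.70. Of the endothelial, immune, adipocyte, pericyte and keratinocyte markers with a tested promoter peak (3, 3, 3, 4 and 2 genes), 0 were called, and their summed levels were 45.0 to 45.4, 24.9 to 25.8, 21.9 to 26.6, 30.9 to 35.7 and 21.3 to 21.6 CPM in basal ducts and 25.9 to 39.6, 11.5 to 27.6, 15.9 to 22.2, 21.1 to 29.1 and 12.1 to 15.6 CPM in basal TEBs.

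Promoter peaks of genes that the paper named as TEB-enriched, duct-enriched or luminal gave few interaction calls. The paper named Nrg1, Sema3b, Meox1, Ccnd2, Postn, Col16a1 and the contractile genes from RNA of single basal cells of TEBs and ducts. Protein staining there also showed more Myh11 and Mylk in the basal layer of ducts. Promoter accessibility and a difference between lineages are other measures, so the calls below do not test those results. In the TEB-enriched list Dmrta1 was called and the other 5 tested were not: the serotonin receptor gene Htr5b at 0.73 ± 0.34, the cyclin gene Ccnd2 at 1.66 ± 0.66, the homeobox gene Meox1 at 0.50 ± 0.84, the ErbB ligand gene Nrg1 at 0.10 ± 0.29 and Sema3b at -0.14 ± 0.42 (edgeR adjusted p = 0.19, 0.056, 0.78, 0.85 and 0.83). Ccnd2 and Htr5b were called with promoter TMM (edgeR adjusted p = 0.018 and 0.029). In the duct-enriched list Lgr5 was called and 6 were not, Postn at -2.37 ± 0.77, Mylk, Col16a1 at -0.66 ± 0.35, Acta2 at -0.66 ± 0.22, Myl9 at -0.11 ± 0.48 and Myh11 at 0.04 ± 0.24 (edgeR adjusted p = 0.078, 0.11, 0.18, 0.11, 0.90 and 0.95). Mylk averaged 5.31 and 2.32 CPM in basal ducts and TEBs, but its luminal libraries held only 0, 1 and 1 counts in ducts and 1, 2 and 2 in TEBs, too few to give its interaction a size. Meox1 likewise had 0 to 5 counts in each luminal library. The contractile genes Acta2, Myl9 and Myh11 had basal changes of -0.02, -0.57 and -0.29, which were not called. In the luminal list Krt18 was called and Krt8, Tox3 and Faah were not, at -0.51 ± 0.23, -0.65 ± 0.35 and -0.68 ± 0.25 (edgeR adjusted p = 0.18, 0.19 and 0.23). For Krt8 and Krt18 the paper reports no difference between TEBs and ducts. The basal change at Krt18 was called here with library-wide TMM, at -1.37 (edgeR adjusted p = 1.2e-04). These lists were chosen by the authors in part on the same libraries and are no independent evidence of direction.

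Called distal sites clustered around some genes. Among peaks 2.5 kb or more from a TSS and not soft-masked, 6.60% were called positive and 5.79% negative. Around Runx1, a transcription factor of both mammary lineages, 16 of 74 sites were negative and 0 positive. The median interaction was -1.89 over these 16 called sites and -0.84 over all 74, and the median levels of the 16 were 18.4, 6.13, 4.72 and 6.71 CPM in basal duct, basal TEB, luminal duct and luminal TEB, while its promoter at -0.56 was not called (edgeR adjusted p = 0.16). Sox9 had 16 negative and 2 positive sites of 90, and Tns1, a focal adhesion gene, 16 negative and 0 positive of 58, with its promoter also called at -1.49 (edgeR adjusted p = 0.010). In the positive direction, all 21 sites nearest Gpm6a, a neuronal membrane glycoprotein gene, were called, with median levels of 2.56, 18.7, 6.10 and 8.27 CPM in basal duct, basal TEB, luminal duct and luminal TEB. The next were 17 of 22 sites nearest Sfi1 and 16 of 22 nearest Gm15319 and 16 of 19 nearest Gm21119, both predicted genes lying close together on chromosome 8. Where such neighbouring sites are near-identical copies, reads could be split between them. This was not tested, so the values near Gpm6a, Sfi1, Gm15319 and Gm21119 are uncertain.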

How the data were processed

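ATAC-seq libraries were compared from basal and luminal cells of terminal end buds and ducts. Per the study's methods, the authors trimmed adapters, used Bowtie2 for alignment to mm10 (the processing notes of the submitters name version 2.3.4.3), removed duplicates, called peaks with MACS2 on replicates pooled by population, merged them, removed blacklisted regions and counted reads per merged peak in SeqMonk. The deposited values used here are these raw counts, with no normalization. Because peaks were called on pooled replicates, a site open in a single library can still be listed, and the deeper basal duct libraries give smaller counting error than the basal TEB libraries, whose median count per tested peak was 7 to 8 against 21 and 28.

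Counts were fitted with edgeR 4.0.16 (R 4.3.3) by quasi-likelihood with TMM factors, filterByExpr and 1 coefficient per group, and p-values were adjusted by Benjamini-Hochberg over 126832 peaks at a threshold of 0.05. The biological coefficient of variation was 0.162. The contrasts were basal and luminal TEB over duct and their difference, with basal over luminal in each structure as a description. CPM values are TMM-scaled, and standard errors were computed over libraries on log2 CPM (prior count 2). The interval for a ratio of low counts is exact at 95% and covers counting error only. Peaks were annotated with GENCODE vM21 on GRCm38, a promoter peak lying within 500 bases of a protein-coding start site, and a peak was called soft-masked where over 50% of it was lower case in the genome. Motifs were searched in the middle 300 bases, and printed sequence is from GRCm38. Of 367 list genes, 42 had no promoter peak. Each class gave up to 4 named promoters above the median level of 4.48 log2 CPM, those with the largest interaction and groups without overlap. It also gave 3 distal sites with the smallest interaction p under the same rule on overlap. Each list gave the called gene with the smallest interaction p in each direction. All genes the study named, and genes with the most called distal sites, were named too. Other genes were named after their values were seen, and so were the members called under every scaling. A few named sites and genes are not reported here. The members and lists were chosen with earlier results of these data known. The statistics were tested on simulated data before use.

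Alternatives were DESeq2 1.42.0, TMM from promoter peaks, loess and GC-bin offsets, no filter, no soft-masked peaks, libraries thinned to 1821942 counts, limma-voom (limma 3.58.1), a replicate block, and leaving out each library. Figures and tables used Python 3.11.15, pandas 2.3.3 and numpy 2.4.6. Per the series' design text, replicates were separate pools of mice, and p-values measure the spread between those pools.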

Additional observations from a re-analysis of the deposited data

Results flagged for a closer look

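The effect of structure differed between lineages, by the test of the difference itself (edgeR quasi-likelihood, Benjamini-Hochberg adjusted p under 0.05), at 9560 peaks in the positive and 8202 in the negative direction. Among the named distal sites the difference, as a log2 interaction, was positive at N6amt1 (3.26), Commd10 (3.42), Gm21119 (2.39), Cobl (1.77), Epha4 (2.57), Zbbx (2.97), Tmem74 (7.16) and Alx1 (4.50). It was negative at the sites near Clic6 (-2.70), Sik2 (-3.78), Mical3 (-2.61), Mroh5 (-1.96), Sptssa (-1.96), Tmem222 (-1.62), Sdk2 (-2.92), Klf14 (-2.02) and Cenpf (-2.18).

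Among named promoters it was positive at Adarb2 (2.54), Ugt1a1 (2.00), Gm17535 (1.82), Gm11168 (1.77), Elf5 (1.83) and Dmrta1 (1.53). It was negative at Syne3 (-2.60), Cdk14 (-2.04), Ergic1 (-1.96), Gcnt2 (-1.88), Tpm1 (-1.10), Lgr5 (-1.87), Thbs1 (-0.90), Cd14 (-1.11), Wnt4 (-1.89), Krt19 (-2.05), Krt18 (-1.19), Heyl (-1.40), Pdgfa (-1.40), Ntn4 (-2.79), Cdk6 (-1.27), Dusp1 (-0.88), Rpl10a (-0.92), Col5a1 (-1.39) and Ncam1 (-1.58).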

How the results depend on the processing

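Depth limits these results most in basal TEBs, where a typical site held under 10 counts per library, and basal duct had only 2 libraries, so that leaving out 1 left a lone sample assumed to vary like the other groups. Of 1193 recomputed values of the 57 named sites and genes, 1089 kept direction and side of the threshold, 87 lost the call, 17 gained it and none turned direction while called.

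Positive interaction calls numbered 9560 and moved to 16234 with TMM factors from promoter peaks and 3033 with thinned libraries. Negative calls, 8202 as reported, moved to 3599 with DESeq2, 3307 with promoter TMM, 5278 with loess offsets, 5271 without soft-masked peaks and 881 with thinned libraries. Basal-only gains (8923) moved to 15698 with promoter TMM, 2828 thinned and 5439 with exact tests of each lineage, an alternative chosen after seeing the data. Basal-only losses (7328) moved to 3144 with DESeq2, 2383 with promoter TMM, 4522 with loess, 4521 without soft-masked peaks and 754 thinned. The basal contrast (38529) fell to 12745 calls thinned. The luminal contrast (117) moved to 193 with promoter TMM, 198 with loess, 73 with GC-bin offsets, 15 thinned, 1087 with limma-voom and 1175 with the exact test.

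Luminal-only gains (15) moved to 4 with DESeq2, 41 with promoter TMM, 31 with loess, 6 with GC-bin offsets, 2 thinned, 53 with limma-voom and 76 with exact tests. Luminal-only losses (14) moved to 3 with DESeq2, 29 with loess, 4 thinned, 84 with limma-voom, 4 where the basal change also had to be under 0.5 log2, and 196 with exact tests. Sites gained in basal and lost in luminal cells (16) moved to 4 with DESeq2, 8 with GC-bin offsets, 1 thinned, 54 with limma-voom, 10 with the replicate block and GC-bin offsets and 25 with exact tests. Sites lost in basal and gained in luminal cells (8) moved to 0 with DESeq2, 4 with loess, 1 with GC-bin offsets, 0 thinned, 36 with limma-voom, 4 with the block and GC-bin offsets and 31 with exact tests. Thinning tested only 75059 peaks with fewer counts each; for the other settings the cause was not tested.

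Leaving out single libraries gave 2559 to 13586 positive and 3036 to 11787 negative calls, 19271 to 41660 basal and 11 to 306 luminal calls, 2391 to 12537 basal-only gains, 2637 to 10389 basal-only losses, 1 to 36 luminal-only gains, 0 to 40 luminal-only losses, and 1 to 37 and 0 to 18 sites in the opposite classes. Same-numbered libraries of different groups did not deviate together (r = -0.04 to 0.08, against -0.05 to 0.05 for other pairs). This cannot exclude pairing by number, because few counts per peak and small groups hold such correlations near 0. The labels do not state whether the numbers pair libraries. A replicate block gave 9543 positive and 8450 negative calls, and 7394 and 7231 with GC-bin offsets.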

Other observations

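Some promoters outside the lists were called with each of the 5 scalings and were picked after their values were seen. Slpi, a secreted protease inhibitor, averaged 24.3 CPM in basal ducts, 2.44 in basal TEBs, 6.83 in luminal ducts and 6.74 in luminal TEBs (interaction -3.42, edgeR adjusted p = 4.4e-05). Tlr4, the lipopolysaccharide receptor, averaged 39.9, 11, 72.1 and 64.2 CPM in the same order (interaction -1.70, edgeR adjusted p = 9.5e-05). Dhrs9, a retinol dehydrogenase gene, had an interaction of -2.43 (edgeR adjusted p = 1.9e-05). In the positive direction Dact3, an inhibitor of Wnt signalling, averaged 59.7, 95.9, 68.8 and 45.4 CPM in basal duct, basal TEB, luminal duct and luminal TEB (interaction 1.29, edgeR adjusted p = 0.0011).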
